A study of Vitis vinifera with 6 samples.

Results

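In all, 9 genes of pectin modification and cell wall loosening were followed in flowers and berries of the grapevine cultivar Sangiovese, in a seedless somatic mutant and in the seeded wild-type from which it arose. They were chosen by a list of identifiers, and all 9 were found among the 28059 gene models counted: a pectate lyase, 3 pectinesterases, 2 polygalacturonases, an alpha-expansin, the beta-expansin EXPB4 and a xyloglucan endotransglucosylase. mRNA-Seq was available for 6 libraries, from the mutant and the wild-type at 3 stages of the modified E-L scale, namely E-L 15 (flowers in compact groups, before fertilization), E-L 27 (young enlarging berries) and E-L 38 (ripe berries). Each library was made from RNA of a lot of flowers or berries, where technical extractions of 1 biological replicate had been pooled. A biological replicate was a whole inflorescence at E-L 15 and a whole bunch at E-L 27 and E-L 38. No difference at a single stage therefore has a replicate check among these libraries. No treatment was applied, and the mutant is a single clone.

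Between 70331451 and 98800321 uniquely mapped reads were counted per library. Values are in RPM, the reads of a gene per 1000000 counted reads, which are not divided by gene length and therefore serve to compare libraries within a gene, not genes with each other. The upper limit behind a count of 0 is 3 reads (95% confidence), or 0.0304 to 0.0427 RPM, and intervals given with ratios are 95% exact binomial intervals that cover counting error only. The labelled stages were reflected in their markers, with the floral organ genes PISTILLATA and AP3 at a summed 939 RPM in mutant flowers and 1076 RPM in wild-type flowers, against at most 21.9 RPM in every berry library. The 6 mature seed markers summed to 1.48 RPM in ripe mutant berries, where 3 of them had no read, and to 845 RPM in ripe wild-type berries. The study had named these markers from the same libraries, so they are no independent check of the labels.

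Pectin is laid down in the primary wall with most of its galacturonic acid units methyl-esterified. Pectinesterases remove the methyl groups, which lets calcium cross-link the chains but also opens them to cutting, by hydrolysis through polygalacturonases and by elimination through pectate lyases. Expansins loosen the contacts between cellulose and matrix polymers without cutting them, and xyloglucan endotransglucosylases cut and rejoin the xyloglucan tethers between cellulose fibres. In fleshy fruits these families act both while cells enlarge after fruit set and while the flesh softens at ripening.

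For 4 of the 9 genes the study designed real-time PCR primers. They are shown because they mark the transcripts with which the study checked RNA-Seq values of this family. Each is written whole, 5′ to 3′, with no part in capitals. The chromosome is the one in the gene identifier, namely 1 for the pectate lyase VIT_01s0026g01680, 11 for the pectinesterase VIT_11s0016g03020 and 15 for both the pectinesterase VIT_15s0048g00510 and EXPB4 (VIT_15s0021g02700).
Pectate lyase, forward: caatacgagcccacattgcg
Pectate lyase, reverse: ttcaggttccttctcgtgcc
Pectinesterase of chromosome 11, forward: attggcaccttcaattctgc
Pectinesterase of chromosome 11, reverse: attctaaatgccaccgcttg
Pectinesterase of chromosome 15, forward: tctcaaacatggctcagcac
Pectinesterase of chromosome 15, reverse: gtgttgctgatgagcttgga
EXPB4, forward: agtcttggggtgccgtttgg
EXPB4, reverse: gccatcccgctggaatgaca
The 8 primers have 20 bases each, with a GC content between 45% and 60%. The study ran the PCR on both biological replicates and reported profiles like those of RNA-Seq in both clones, with replicates alike in most cases. The PCR values themselves were not analysed here.

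The 9 genes fell into a fruit-set and a ripening group. The pectate lyase, the pectinesterases VIT_15s0048g00510 and VIT_11s0016g03020, the polygalacturonase VIT_01s0127g00400 and the alpha-expansin VIT_06s0004g04860 had a mean RPM over both clones that was lower in ripe than in young berries, and these 5 are called fruit-set genes here. The other 4, the pectinesterase VIT_16s0022g00960, the polygalacturonase VIT_08s0007g08330, EXPB4 and the xyloglucan endotransglucosylase VIT_06s0061g00550, had a higher one and are called ripening genes. The name fruit-set rests on the berry stages alone and says nothing of E-L 15, since VIT_01s0127g00400 was highest in flowers of both clones, and VIT_11s0016g03020 and the alpha-expansin were highest in flowers of the mutant. This grouping used the stage values, so that stage differences between the groups are a description.

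**Figure D1:**
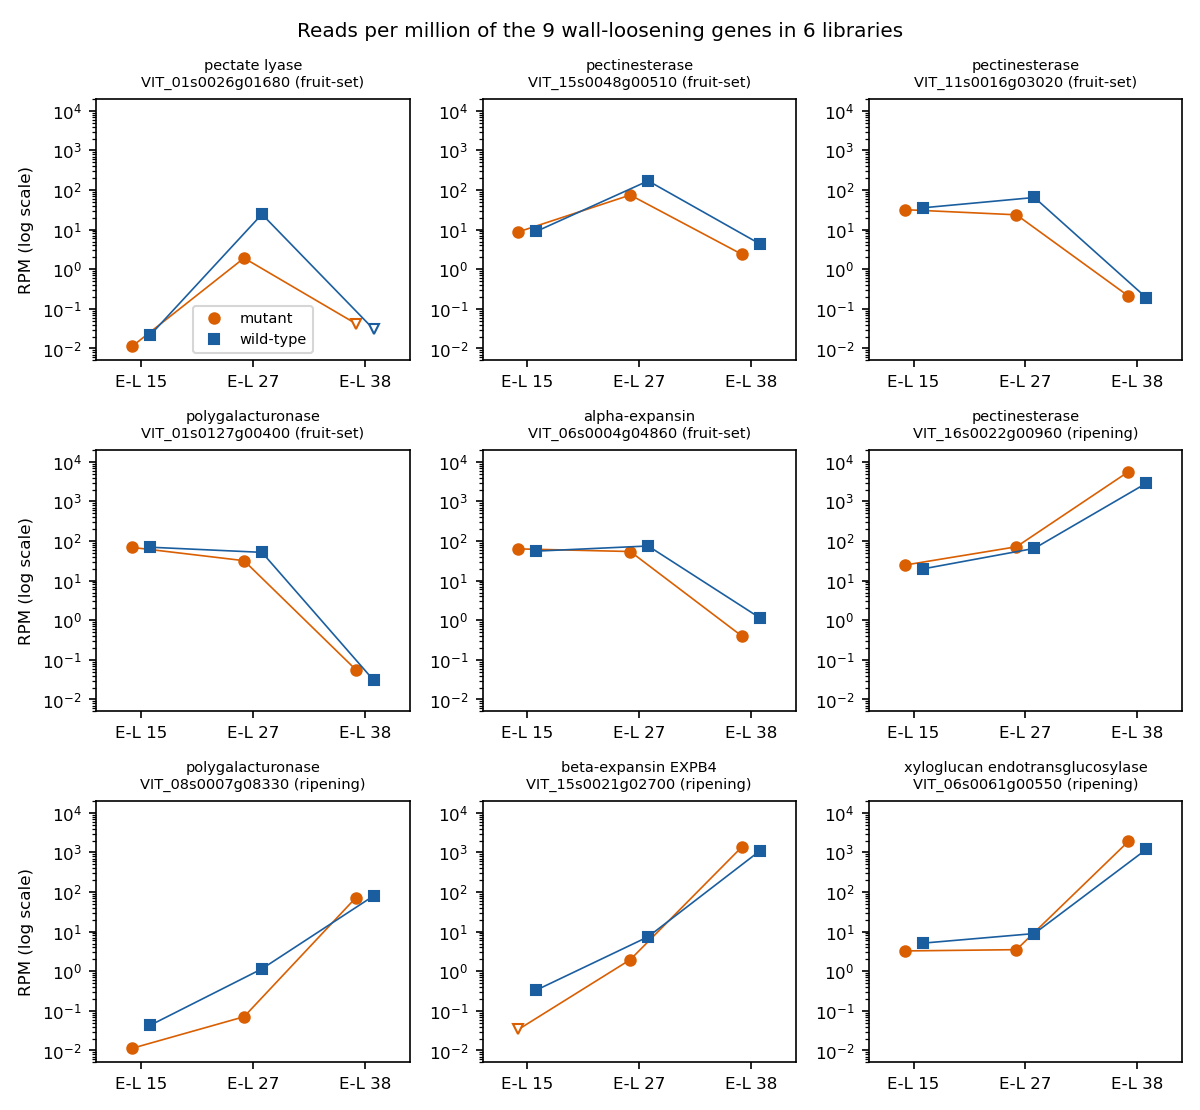
RPM (log scale) of the 9 genes at the 3 stages, with circles for the mutant and squares for the wild-type. Open triangles stand at the RPM of 3 reads for libraries with no read. The pectate lyase reached 1.92 RPM in the mutant and 24.6 RPM in wild-type vines at E-L 27, while the 4 ripening genes were highest at E-L 38 in both clones.

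The pectate lyase VIT_01s0026g01680, which cuts de-esterified pectin, was read almost exclusively in young berries. In the mutant it had 0.0114 RPM at E-L 15 (1 read), 1.92 RPM at E-L 27 (135 reads) and no read at E-L 38. In the wild-type it had 0.0216 RPM at E-L 15 (2 reads), 24.6 RPM at E-L 27 (2218 reads) and no read at E-L 38. Both clones thus shared the timing, and they differed in the height of the peak. Young mutant berries had 12.8-fold less than young wild-type berries (10.8 to 15.3), and 0.218% of the genes that averaged 1 RPM or more in these 2 libraries had a lower ratio. Between E-L 15 and E-L 27 the gene increased 169-fold in the mutant (29.8 to 6721) and 1137-fold in wild-type vines (314 to 9395), and these wide intervals come from the 1 and 2 reads in flowers. Ripe berries had at least 45.4-fold less than young berries in the mutant and at least 809-fold less in wild-type vines, computed against 3 reads.

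The pectinesterase VIT_15s0048g00510 also peaked in young berries of both clones. It had 8.78 RPM at E-L 15, 74.9 RPM at E-L 27 and 2.37 RPM at E-L 38 in the mutant, and 9.05, 171 and 4.35 RPM at the same stages in wild-type vines. Flowers of the clones did not differ beyond counting error, the mutant being 1.03-fold lower (0.933 to 1.14). In young berries the mutant was 2.28-fold lower (2.21 to 2.35) and in ripe berries 1.84-fold lower (1.53 to 2.21). The increase from E-L 15 to E-L 27 was 8.53-fold in the mutant (7.90 to 9.21) and 18.8-fold in wild-type vines (17.6 to 20.2), and the later decrease was 31.6-fold in the mutant (27.1 to 37.1) and 39.2-fold in wild-type vines (35.6 to 43.2).

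The pectinesterase VIT_11s0016g03020 had ratios of young berries to flowers that pointed in opposite directions in the clones. In the mutant it had 32 RPM at E-L 15, 23.7 RPM at E-L 27 and 0.212 RPM at E-L 38, with the highest value in flowers. In the wild-type it had 35.5, 64.9 and 0.192 RPM at these stages, with the highest in young berries. From E-L 15 to E-L 27 it was 1.35-fold lower in the mutant (1.27 to 1.44) and 1.83-fold higher in wild-type vines (1.75 to 1.91). Young mutant berries had 2.74-fold less than young wild-type berries (2.59 to 2.89), whereas mutant flowers had 1.11-fold less than wild-type flowers (1.06 to 1.17). At E-L 38 only 15 mutant reads and 19 wild-type reads were left, and a difference between the clones was not detectable at this depth (ratio 1.10, 0.520 to 2.29).

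The fruit-set polygalacturonase and the alpha-expansin were already high in flowers. The polygalacturonase VIT_01s0127g00400, which hydrolyses de-esterified pectin, had 69.1 RPM at E-L 15, 31.9 RPM at E-L 27 and 0.0564 RPM at E-L 38 in the mutant, and 69.9, 51.8 and 0.0304 RPM in wild-type vines. Flowers of the clones did not differ beyond counting error (mutant 1.01-fold lower, 0.976 to 1.05), and young mutant berries had 1.62-fold less than young wild-type berries (1.54 to 1.71). Young berries had 2.16-fold less than flowers in the mutant (2.06 to 2.27) and 1.35-fold less in wild-type vines (1.30 to 1.40). Ripe berries had 4 reads in the mutant and 3 in wild-type vines.

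Alpha-expansins act on growing walls. The alpha-expansin VIT_06s0004g04860 had 63.4 RPM at E-L 15, 54.4 RPM at E-L 27 and 0.395 RPM at E-L 38 in the mutant, and 55.7, 75.0 and 1.14 RPM in wild-type vines. The mutant library was 1.14-fold higher in flowers (1.10 to 1.18) and 1.38-fold lower in young berries (1.33 to 1.44). Of the genes that averaged 1 RPM or more in the pair of libraries, 17.3% had a higher ratio in flowers. In young berries 8.24% had a lower one. In ripe berries 28 mutant reads stood against 113 wild-type reads, a value 2.90-fold lower in the mutant (1.90 to 4.55) at a level below the 1 RPM needed to enter the counts below. Another alpha-expansin named by the study, VIT_08s0058g01200 (alpha-expansin 2), had no read in any mutant library and 36 reads (0.399 RPM) in young wild-type berries alone. Computed against 3 reads, it was at least 9.35-fold lower in young mutant berries, without the counting error of the 36 reads. The study listed it as expressed in the wild-type and not in the mutant, so its absence from the mutant was the reason for its choice.

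Among the ripening genes, the pectinesterase VIT_16s0022g00960 differed most between ripe berries of the clones. It had 24.7 RPM at E-L 15, 71.7 RPM at E-L 27 and 5596 RPM at E-L 38 in the mutant, and 19.7, 65.3 and 2869 RPM in wild-type vines. The mutant was higher at all 3 stages, by 1.25-fold in flowers (1.18 to 1.33), 1.10-fold in young berries (1.06 to 1.14) and 1.95-fold in ripe berries (1.94 to 1.96). The ripe-berry ratio lies just under 2-fold in RPM, and it was above 2-fold when the libraries were scaled by DESeq2 size factors (1.10 on the log2 scale) or TMM factors (1.08). Between young and ripe berries the gene increased 78.0-fold in the mutant (75.9 to 80.2) and 43.9-fold in wild-type vines (42.8 to 45.1).

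The beta-expansin EXPB4 (VIT_15s0021g02700) was lower in the mutant before ripening and higher in ripe fruit. In the mutant it had no read at E-L 15, 1.96 RPM at E-L 27 (138 reads) and 1396 RPM at E-L 38. In the wild-type it had 0.335 RPM (31 reads), 7.44 RPM (672 reads) and 1103 RPM at these stages. The mutant was at least 9.82-fold lower in flowers and 3.79-fold lower in young berries (3.15 to 4.59), and it was 1.27-fold higher in ripe berries (1.26 to 1.28). From E-L 27 to E-L 38 the gene increased 712-fold in the mutant (602 to 847) and 148-fold in wild-type vines (137 to 160.1).

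The xyloglucan endotransglucosylase VIT_06s0061g00550 showed the same order of the clones at each stage as EXPB4. It had 3.26 RPM at E-L 15, 3.51 RPM at E-L 27 and 1894 RPM at E-L 38 in the mutant, and 5.12, 8.96 and 1191 RPM in wild-type vines. The mutant was 1.57-fold lower in flowers (1.35 to 1.82), 2.55-fold lower in young berries (2.21 to 2.95) and 1.59-fold higher in ripe berries (1.58 to 1.60). Between E-L 15 and E-L 27 no change was detectable in the mutant (1.08-fold, 0.905 to 1.28), while the wild-type was 1.75-fold higher at E-L 27 (1.56 to 1.96).

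The ripening polygalacturonase VIT_08s0007g08330, by contrast, was not higher in ripe mutant berries. It had 0.0114 RPM at E-L 15 (1 read), 0.0711 RPM at E-L 27 (5 reads) and 72.1 RPM at E-L 38 in the mutant, and 0.0432 RPM (4 reads), 1.15 RPM (104 reads) and 80.6 RPM in wild-type vines. The mutant was 16.2-fold lower in young berries (6.72 to 50.9), with too few reads for the counts below. In ripe berries it was 1.12-fold lower (1.08 to 1.16), a difference that nearly vanished with DESeq2 size factors (-0.03 on the log2 scale).

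**Figure D2:**
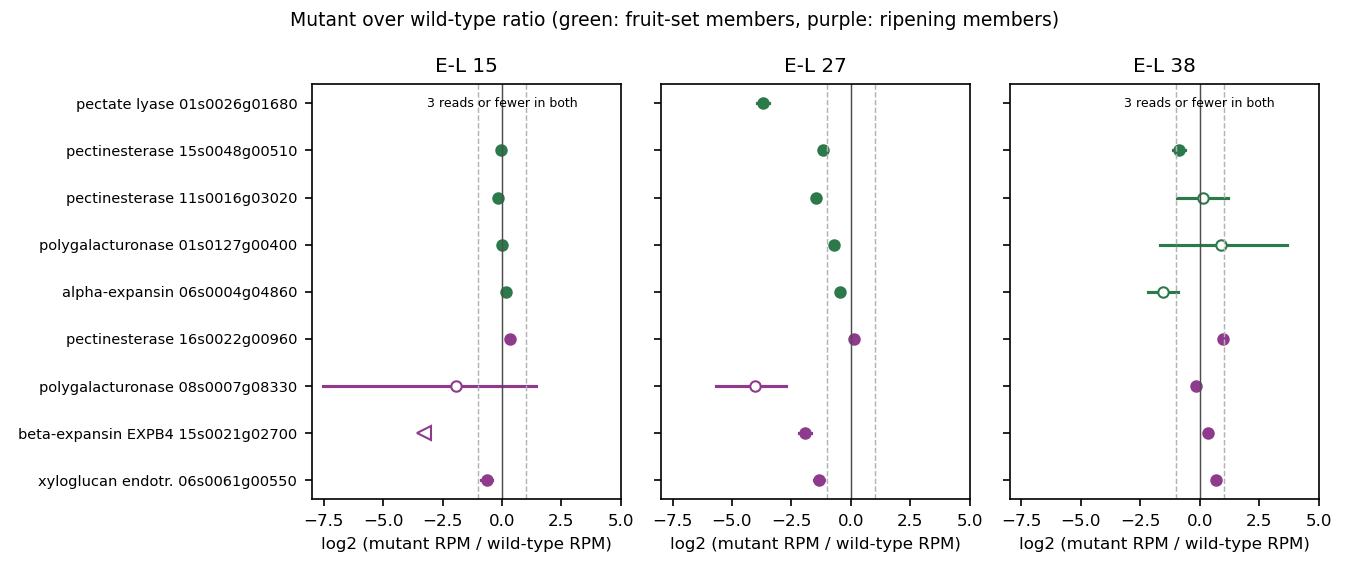
Log2 ratio of mutant RPM to wild-type RPM of each gene at the 3 stages, with 95% intervals for counting error. Filled circles are genes that averaged 1 RPM or more in the pair of libraries, open circles lie below it, the open triangle is a bound against 3 reads, and dashed lines mark 2-fold. At E-L 27 the filled circles of 7 of 8 genes lie left of 0, and at E-L 38 those of 3 of 4 ripening genes lie right of it.

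The comparison of the clones was then set against all genes that averaged 1 RPM or more in the pair of libraries of a stage. The study avoided comparing the clones directly at each stage, because sampling may not have been synchronous. It also described both clones as being at the same stage on the same date. A difference in sampling stage was not tested and cannot be told apart from a difference between clones. In flowers none of the 6 wall genes that reached this level differed more than 2-fold, where 0.786% of 18825 genes were more than 2-fold lower and 0.388% more than 2-fold higher in the mutant. The median log2 ratio of the 6 genes was -0.03, and that of all genes was -0.02.

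In young berries 5 of the 8 wall genes at this level were more than 2-fold lower in the mutant, namely the pectate lyase, the pectinesterases VIT_15s0048g00510 and VIT_11s0016g03020, EXPB4 and the xyloglucan endotransglucosylase. Of 18787 genes 2.48% were more than 2-fold lower. None of the 8 was more than 2-fold higher, where 0.591% of all genes were. A total of 7 of the 8 had a ratio below 1, with a median log2 ratio of -1.27 against -0.03 over all genes. The exception was the ripening pectinesterase VIT_16s0022g00960. All 5 fruit-set genes were lower (median -1.19), as were 2 of the 3 ripening genes at this level (median -1.35). The pectate lyase, VIT_15s0048g00510 and EXPB4 had been listed by the study as candidates with altered expression, from these same libraries. VIT_11s0016g03020 was also among its PCR genes. The wall genes are thus not a list independent of this contrast, and their share and median are a description.

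**Figure D3:**
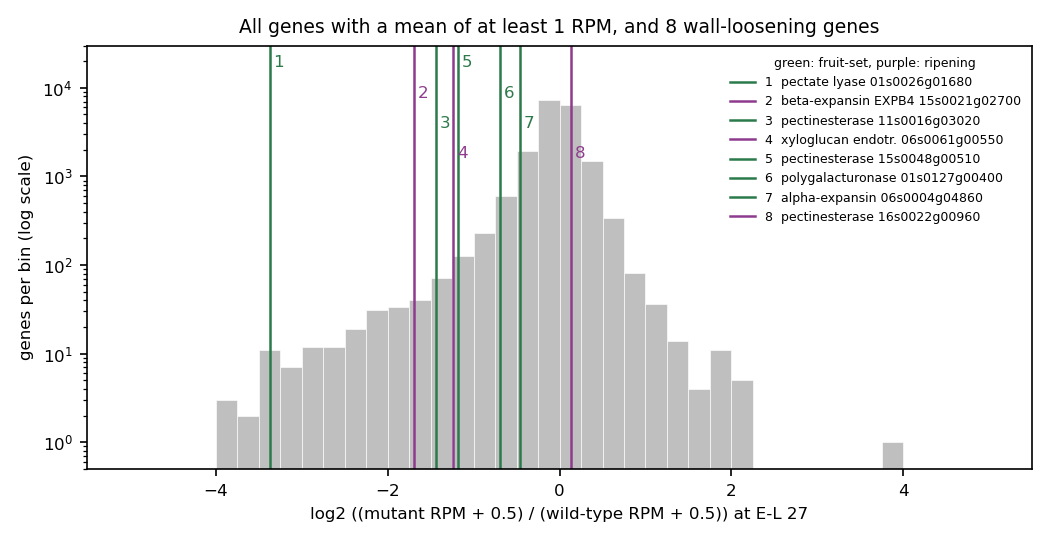
Number of genes (log scale) by log2 ratio of the mutant to the wild-type at E-L 27, with 0.5 RPM added to both values, for the 18787 genes that averaged 1 RPM or more. Coloured lines mark the 8 wall genes at this level, of which 7 lie below 0, the pectate lyase lowest at -3.37.

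In ripe berries 0 of the 5 wall genes at this level were more than 2-fold lower, where 7.4% of 16946 genes were, and 0 were more than 2-fold higher, where 1.82% of all genes were. With size factors the pectinesterase VIT_16s0022g00960 passed 2-fold, which made it 1 of 5. The 4 ripening genes had a median log2 ratio of 0.51, with 3 of them higher in the mutant, against -0.09 over all genes. Size factors shifted all log2 ratios at E-L 38 by 0.14, to medians of 0.64 for the ripening genes and 0.05 for all genes.

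The ovule and seed coat markers and the floral organ markers were also lower in the mutant at E-L 27, where most wall genes were. The study had listed all these markers as candidate genes with altered expression in these same libraries. Their differences are therefore a description and no independent evidence. In young berries the ovule and seed coat genes SEEDSTICK and TT16 summed to 13.2 RPM in the mutant and 81.5 RPM in wild-type vines, both being lower in the mutant (10.7 and 67.4 RPM for SEEDSTICK, 2.43 and 14.2 RPM for TT16). The floral organ genes summed to 11.1 RPM in young mutant berries and 21.9 RPM in young wild-type berries, PISTILLATA being 2.56-fold lower and AP3 1.74-fold lower. In flowers the sum of SEEDSTICK and TT16 was 10.2 RPM in the mutant and 9.65 RPM in wild-type vines. At E-L 38 their sum was 26.8 RPM in the mutant and 33.3 RPM in wild-type vines, mostly from SEEDSTICK (26.7 and 33.2 RPM). In ripe berries the 6 mature seed markers summed to 1.48 RPM in the mutant and 845 RPM in wild-type vines. The 5 pollen and tapetum markers summed to 137 RPM in the mutant and 269.6 RPM in wild-type vines at E-L 15, to 30.0 and 22.8 RPM at E-L 27, and to 3.75 and 27.5 RPM at E-L 38. The E-L 27 sums came mostly from the MS5 gene VIT_15s0107g00550 (26.7 RPM in the mutant, 19.7 RPM in wild-type vines). The other MS5 genes were also higher in the mutant there, MS1 was alike (0.427 and 0.432 RPM), and MS2 was lower (0.0569 and 0.831 RPM). Their part in the differences of the wall genes was not tested, and in lots of flowers or berries fewer cells of a type cannot be told apart from less RNA per cell. The reference genes were even, SAND lying between 62.8 and 74.2 RPM and GAPDH between 2009 and 2822 RPM over the 6 libraries.

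The libraries were multiplexed, and the young-berry values of the ripening genes were small beside those of ripe berries. The E-L 27 value was 0.141% of the E-L 38 value of the same clone for EXPB4 in the mutant and 0.675% in wild-type vines, 0.185% and 0.752% for the xyloglucan endotransglucosylase, and 0.0987% and 1.43% for the polygalacturonase VIT_08s0007g08330. In the wild-type the 6 mature seed markers had at E-L 27 between 0.2% and 1.16% of their E-L 38 values. When 0.2% of the wild-type E-L 38 value was subtracted from wild-type E-L 27, an alternative chosen after seeing the data, the mutant was 2.67-fold lower in EXPB4, 1.87-fold lower in the xyloglucan endotransglucosylase and 13.9-fold lower in the polygalacturonase, and 4 of 8 wall genes stayed more than 2-fold lower. The ratios of the 5 fruit-set genes could hardly move, since these had at most 4.35 RPM in wild-type E-L 38. Nothing was subtracted from the mutant, so the subtraction could only narrow a gap in which the mutant was lower. In the mutant the E-L 27 values of EXPB4, the xyloglucan endotransglucosylase and VIT_08s0007g08330 were below 0.2% of E-L 38, so the same subtraction could not be made. At E-L 15 EXPB4 had 0.0304% of its E-L 38 value in wild-type vines and no read in the mutant. Whether reads passed between libraries was not tested.

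The fruit-set and ripening groups behaved differently as sums. The 5 fruit-set genes together had 173 RPM at E-L 15, 187 RPM at E-L 27 and 3.03 RPM at E-L 38 in the mutant, and 170.2, 387 and 5.72 RPM in wild-type vines. In flowers the sums were alike within counting error (ratio 1.02, 0.996 to 1.04). In young berries the mutant sum was 2.07-fold lower (2.03 to 2.11), and 1.93-fold lower without the pectinesterase VIT_15s0048g00510. In ripe berries it was 1.89-fold lower (1.61 to 2.22).

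The 4 ripening genes together had 28.0 RPM at E-L 15, 77.3 RPM at E-L 27 and 8958 RPM at E-L 38 in the mutant, and 25.2, 82.9 and 5243 RPM in wild-type vines. They took 0.896% of all counted reads of ripe mutant berries and 0.524% of those of ripe wild-type berries, a 1.71-fold higher sum in the mutant (1.70 to 1.71). Without the pectinesterase VIT_16s0022g00960, the ripening gene with most reads, the sum was 1.42-fold higher in ripe mutant berries and 3.17-fold lower in young mutant berries. The near equality of the ripening sums at E-L 27 thus rested on this pectinesterase.

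**Figure D4:**
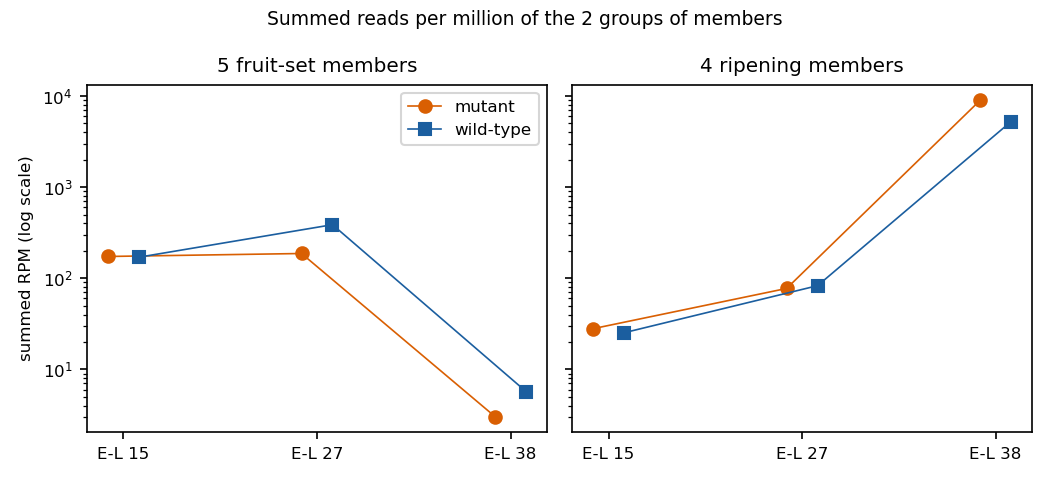
Summed RPM (log scale) of the 5 fruit-set genes and of the 4 ripening genes at each stage, with circles for the mutant and squares for the wild-type. The fruit-set sum was 187 RPM in the mutant and 387 RPM in wild-type vines at E-L 27, and the ripening sum was 8958 RPM in the mutant and 5243 RPM in wild-type vines at E-L 38.

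Stage effects common to the clones were tested in a fit of all 6 libraries with terms for stage and clone (edgeR quasi-likelihood test, 2 residual degrees of freedom, Benjamini-Hochberg adjustment over 23570 genes). From E-L 15 to E-L 27, 4 of the 9 wall genes rose, where 10.7% of all genes tested did, and 0 fell, where 11.4% did. The pectate lyase rose by 9.36 ± 0.64 on the log2 scale (SE, edgeR adjusted p = 0.0108) and the pectinesterase VIT_15s0048g00510 by 3.67 ± 0.32 (SE, edgeR adjusted p = 0.00857). Each SE given with this fit is the absolute log2 change divided by the square root of the F statistic of its test. It is an approximation and not a fitted standard error. The pectinesterase VIT_16s0022g00960 rose by 1.65 ± 0.27 (SE, edgeR adjusted p = 0.0239) and EXPB4 by 4.75 ± 1.08 (SE, edgeR adjusted p = 0.0465). The polygalacturonase VIT_08s0007g08330 had 4.30 ± 1.40 (SE, edgeR adjusted p = 0.0973) and passed in DESeq2. Leaving out any single library of E-L 15 or E-L 27, that is mutant E-L 15, mutant E-L 27, wild-type E-L 15 or wild-type E-L 27, left 0 genes called in this contrast, and leaving out mutant E-L 38 or wild-type E-L 38 gave 5 wall genes higher and 1, the polygalacturonase VIT_01s0127g00400, lower. The sizes moved as well when single libraries were left out, between 7.19 and 10.06 for the pectate lyase and between 3.21 and 4.14 for VIT_15s0048g00510. EXPB4 ranged between 3.79 without wild-type E-L 27 and 11.02 without wild-type E-L 15, where the E-L 15 library left had no EXPB4 read, and VIT_08s0007g08330 had 1.43 without wild-type E-L 27.

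From E-L 27 to E-L 38 all 9 wall genes passed, the 4 ripening genes being higher, where 29.9% of all genes were, and the 5 fruit-set genes lower, where 34.1% were. The edgeR adjusted p-values of the 9 genes lay between 0.000349 and 0.00293, and each gene stayed past the threshold under each alternative run. Between flowers and ripe berries, the 4 ripening genes rose, where 30.9% of all genes did, and 4 fruit-set genes fell, where 35.9% did. The pectate lyase did not pass (edgeR adjusted p = 0.137), as it was at 2 reads or fewer in flowers and at 0 in ripe berries of both clones. The call of the pectinesterase VIT_15s0048g00510 in that contrast (edgeR adjusted p = 0.0286) was lost without mutant E-L 15 (0.0807), without mutant E-L 38 (0.0651) and without wild-type E-L 38 (0.0513), all by edgeR adjusted p, and its log2 change ranged between -1.57 and -0.64 when single libraries were left out. It was also lost without the clone term (edgeR adjusted p = 0.0792), which left 3 fruit-set genes lower.

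A difference between the clones common to the 3 stages was called for 0 of the 9 wall genes, as for 0% of all genes tested by edgeR. At an unadjusted p below 0.05 there were 2 wall genes and 1212 genes in all. DESeq2 called 26 genes higher and 32 lower in the mutant, with 0 wall genes among them. The lowest edgeR adjusted p of a wall gene was 0.807, a value that 6 of the 9 genes shared. The log2 difference of the pectate lyase was -3.41 ± 0.54 (SE) over all 6 libraries, -0.78 without mutant E-L 27 and -0.77 without wild-type E-L 27. The ratios at single stages have no test, since a stage by clone term cannot be fitted to 1 library per clone and stage.

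The pairwise calls within each clone used the study's stage comparisons, by a rewritten DESeq procedure without replicates, whose calls compare libraries and not conditions. This procedure called more genes than the study reported in each comparison of both clones, and did not reproduce its numbers of calls. From E-L 15 to E-L 27 it called 3 wall genes in the mutant, where 2.26% of all genes tested were called in either direction, and 3 in wild-type vines, where 2.39% were. In both clones these were the pectate lyase, the pectinesterase VIT_15s0048g00510 and EXPB4, all higher at E-L 27. With the dispersion trend taken from all 3 libraries of a clone, none was left in the mutant and only the pectate lyase in wild-type vines. For EXPB4 the study reported an increase between these stages in the mutant alone, and stable expression in the wild-type.

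From E-L 27 to E-L 38 the procedure called 6 wall genes in the mutant (2.93% of all genes) and 8 in wild-type vines (3.37%). EXPB4, the xyloglucan endotransglucosylase and the polygalacturonase VIT_08s0007g08330 were called higher in both clones. The study itself detected no change of EXPB4 between these stages in either clone. With the trend from 3 libraries, the call of the xyloglucan endotransglucosylase in the mutant was lost. The pectinesterase VIT_11s0016g03020, the polygalacturonase VIT_01s0127g00400 and the alpha-expansin were called lower in both. The pectate lyase and the pectinesterase VIT_15s0048g00510 were called lower in wild-type vines and not in the mutant, and this difference between the clones was not tested. For VIT_15s0048g00510 the study detected no change between these stages in either clone. The exact test of edgeR, with an assumed variation, called the pectate lyase and VIT_15s0048g00510 lower in the mutant as well.

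From E-L 15 to E-L 38 there were 6 calls in the mutant (3.24% of all genes) and 5 in wild-type vines (3.94%), the alpha-expansin being called lower in the mutant and not in wild-type vines. It was called lower in wild-type vines too with the trend from 3 libraries and by the exact test of edgeR, and a difference between the clones was not tested. The pectinesterase VIT_16s0022g00960 was called in none of the 6 comparisons, although ripe berries had 227-fold more than flowers in the mutant (217 to 236) and 145-fold more in wild-type vines (139 to 152). With the biological coefficient of variation assumed to be 0.4, the exact test of edgeR called it higher at E-L 38 in both clones and from both earlier stages.

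Scaling bore on the ratios with ripe berries. The median gene was -0.40 on the log2 scale at E-L 38 over E-L 27 in the mutant and -0.32 in wild-type vines, and size factors raised these ratios by 0.43 and 0.34. From E-L 15 to E-L 38 size factors raised them by 0.46 in the mutant and 0.34 in wild-type vines. The 4 ripening genes stayed higher and the fruit-set genes with a ratio stayed lower at E-L 38 under this scaling. The pectinesterase VIT_15s0048g00510 had log2 ratios of E-L 38 to E-L 15 of -1.89 in the mutant and -1.06 in wild-type vines in RPM, and of -1.43 and -0.72 with size factors.

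Across the 6 libraries the wall genes varied with their own group. The correlation of log2(RPM + 0.5) over the 6 libraries was between 0.40 and 0.99 for the 16 pairs within a group (median 0.98) and between -0.99 and -0.20 for the 20 pairs across groups (median -0.95). These are descriptions over libraries that share the stage pattern by which the groups were made. The lowest within-group value was that of the pectate lyase with the polygalacturonase VIT_01s0127g00400, and the pectate lyase was closest to the pectinesterase VIT_15s0048g00510 (0.92).

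Of 19303 other genes that averaged 1 RPM or more over all libraries, 54 correlated above 0.95 with the pectate lyase and 452 with the pectinesterase VIT_15s0048g00510. The numbers were 1547 for EXPB4, 1622 to 1758 for the other 3 ripening genes and 4070 to 4593 for the other 3 fruit-set genes. The genes most like the pectate lyase were VIT_01s0011g02250 and VIT_14s0083g00850, both at a Pearson correlation of 0.998 over the 6 libraries. VIT_01s0011g02250 had 2.35 RPM at E-L 27 in the mutant and 20.9 RPM in wild-type vines, and VIT_14s0083g00850 had 2.12 RPM in the mutant and 31.6 RPM in wild-type vines, while both stayed at or below 0.193 RPM at the other stages. Those most like EXPB4 were VIT_08s0040g00680 and VIT_19s0090g01370, both at 0.999. All these genes were picked by this correlation, so their likeness follows from the choice and is a description. The range of VIT_08s0040g00680 was small, from 3.59 RPM in mutant flowers to 9.38 RPM in ripe mutant berries, whereas VIT_19s0090g01370 reached 7131 RPM in ripe mutant berries and 5725 RPM in ripe wild-type berries.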

How the data were processed

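mRNA-Seq of 6 libraries was used, 1 per clone and stage, grouped by the labels. The counts deposited by the authors are uniquely mapped reads per gene model, for which BWA was run against the mRNA models (v1) of the PN40024 12x genome with up to 2 mismatches in the first 32 bp and SAMtools selected the unique positions. The deposited RPM values are the same counts per 1000000 unique reads, scaled by the authors without division by gene length, since coverage was biased towards transcript ends. The versions of BWA and SAMtools are not given in the sources used here.

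Ratios were computed from RPM with 95% Clopper-Pearson intervals. A count of 0 was replaced by 3 reads to give a bound, and no ratio was given where both counts were 3 or fewer. For the share of genes past 2-fold, an average of 1 RPM or more over the pair of libraries was required. Stage and clone effects were tested on counts with edgeR 4.0.16 in R 4.3.3 (filterByExpr, TMM, glmQLFit and glmQLFTest, adjusted p-value below 0.05), with DESeq2 1.42.0 as an alternative. The DESeq procedure without replicates was rewritten with locfit 1.5.9.12 (adjusted p-value at most 0.05, log2 fold change above 1). Python 3.11.15, numpy 2.4.6, scipy 1.17.1, pandas 2.3.3 and matplotlib 3.10.9 were used otherwise. The fits were tested on simulated data.

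The members, the marker lists and the tests were chosen with earlier results of these data known. Genes named are the 9 members, alpha-expansin 2, the markers, and the 2 genes most correlated with the pectate lyase and with EXPB4. None of the 28059 identifiers matched the reference gene table, so that other members of the gene families, gene positions and sequences were not used here. Reads with several positions were left out by the authors, so near-identical family members may be undercounted.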

Additional observations from a re-analysis of the deposited data

Results flagged for a closer look

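For 2 fruit-set genes the ratio of E-L 27 to E-L 15 pointed in opposite directions in the clones. The pectinesterase VIT_11s0016g03020 had a log2 ratio of -0.43 in the mutant and 0.87 in wild-type vines, and the alpha-expansin VIT_06s0004g04860 had -0.22 in the mutant and 0.43 in wild-type vines. Both kept these directions with DESeq2 size factors, with TMM factors and with 0.5 RPM added. With 1 library per clone and stage, the difference between the clones was not tested.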

How the results depend on the processing

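The clone ratios of the 9 genes kept their direction under DESeq2 size factors, TMM factors and 0.5 RPM added. With size factors or TMM factors, 1 wall gene instead of 0 was more than 2-fold higher in ripe mutant berries. When each library was left out in turn from the edgeR fit, the E-L 27 over E-L 15 contrast gave 0 to 5 wall genes higher and 0 to 1 lower, with 0 to 4887 genes higher and 0 to 4735 lower overall. In the same fits E-L 38 over E-L 27 gave 3965 to 7086 genes higher and 5428 to 8176 lower, and E-L 38 over E-L 15 gave 4531 to 7301 higher and 5868 to 8516 lower. With 5 libraries only 1 residual degree of freedom is left. DESeq2 called 26 genes higher and 32 lower in the mutant against 0 by edgeR. Some log2 changes turned direction when a library was left out. In E-L 27 over E-L 15, the pectinesterase VIT_11s0016g03020 (0.27 over all 6 libraries) ranged between -0.48 without wild-type E-L 27 and 0.91 without mutant E-L 27, being -0.15 without wild-type E-L 15. The alpha-expansin VIT_06s0004g04860 (0.09) ranged between -0.37 without wild-type E-L 15 and 0.63 without mutant E-L 15, and VIT_06s0061g00550 (0.55) between -0.29 without wild-type E-L 27 and 1.12 without mutant E-L 27. Over the clones, VIT_01s0127g00400 (-0.28) ranged between -0.50 and 0.10 and VIT_06s0061g00550 (-0.36) between -0.98 and 0.10, the positive values coming without mutant E-L 27 or wild-type E-L 27. None of these passed the threshold. The DESeq procedure with the trend from 3 libraries called 73 genes for E-L 27 over E-L 15 in the mutant (0 wall genes) and 84 in wild-type vines (1 wall gene), and 1316 for E-L 38 over E-L 15 in the mutant. The edgeR exact test with the assumed variation called 1132, 5525 and 6265 genes in the mutant and 1285, 5541 and 6333 in wild-type vines, for E-L 27 over E-L 15, E-L 38 over E-L 27 and E-L 38 over E-L 15. The cause of these shifts was not tested. The edgeR fit already compares stages within a clone through its clone term, and without that term 2901 genes were higher and 3100 lower at E-L 27 over E-L 15. No paired analysis was possible because, beyond this term, each clone and stage has 1 library and there are no replicate numbers to pair. Depth limits the statements on genes with few reads, such as the polygalacturonase VIT_08s0007g08330 in young mutant berries (5 reads).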
